A study of Mus musculus with 12 samples.

Results

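The genes described here carry the vitamin D signal and move calcium and phosphate across the intestinal wall: the vitamin D receptor Vdr, the vitamin D-degrading enzyme Cyp24a1, the calcium channel Trpv6, the cytosolic calcium carrier S100g, the calcium pump Atp2b1, the phosphate transporters Slc34a2 and Slc20a1, and the calcium-sensing receptor Casr. They were chosen as a list of 8 genes, and each gene was read from the probe set with 1 gene symbol that had the highest mean over the 12 arrays. Of the 8 genes, 7 were measured, among 19938 genes with such a probe set. The platform table used here gives the name Cyp24a1 to none of its probe sets, of which 12146 carry no symbol, so that gene is not analysed here. Each of the 7 had 1 probe set with its name alone.

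Total RNA came from the jejunum of male mice of the inbred strains A/J and C57BL/6J (B6), aged 8 weeks, taken 7 days after surgery. In common bile duct ligation (CBDL) the bile duct was closed with a clip, so that bile no longer reached the gut, and sham mice were operated on without dissection or ligation of the duct. Each strain had a sham and a CBDL group, with 3 arrays per group, and the comparisons asked how ligation and strain change the RNA of the jejunum. Nothing in the labels links an array to a separate animal, so a p-value here sets a difference against the spread of these arrays alone, which may be technical.

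Vitamin D taken up with dietary fat is made in the liver and kidney into its active hormone, calcitriol. The hormone binds the vitamin D receptor, which pairs with a retinoid X receptor on DNA and raises transcription of the genes for calcium uptake and of Cyp24a1, which degrades the hormone. Calcium enters the enterocyte through Trpv6, is carried across the cell by S100g and is pumped into the blood by Atp2b1. Bile acids are needed to absorb fat-soluble vitamins, and the bile acid lithocholic acid is itself a ligand of the receptor.

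Of the 7 measured genes, 2 passed a test. Slc20a1, a sodium-coupled phosphate transporter found in most cells, was lower after CBDL averaged over both strains, and Vdr was higher in A/J than in B6 mice averaged over both operations. The sequences before the transcription start of these 2 genes are shown because they are the genes whose RNA differed. They are the B6 reference (RefSeq, build GRCm38.p6), 250 bases on the gene's own strand, with each GC box (GGGCGG or its reverse complement CCGCCC, a site read by Sp1 factors) in capitals. Slc20a1 has a second start in RefSeq, which is not shown; its window lies at chr2:129206846-129207095.
Slc20a1, chr2:129198523-129198772, plus strand: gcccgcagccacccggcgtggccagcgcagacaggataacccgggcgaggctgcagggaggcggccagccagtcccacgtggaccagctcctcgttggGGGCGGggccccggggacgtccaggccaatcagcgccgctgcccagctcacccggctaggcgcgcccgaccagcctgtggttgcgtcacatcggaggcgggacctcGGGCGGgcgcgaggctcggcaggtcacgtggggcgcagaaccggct
Vdr, chr15:97908297-97908546, minus strand: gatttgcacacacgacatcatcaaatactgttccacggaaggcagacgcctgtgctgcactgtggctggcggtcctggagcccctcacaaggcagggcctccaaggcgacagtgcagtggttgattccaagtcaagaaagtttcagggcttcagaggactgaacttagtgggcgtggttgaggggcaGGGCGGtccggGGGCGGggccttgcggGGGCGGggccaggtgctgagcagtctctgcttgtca

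The Slc20a1 window held 2 GC boxes, which begin 152 and 46 bases before the start, and 75.2% of its bases were G or C. The Vdr window held 3 GC boxes, which begin 63, 52 and 36 bases before the start, with 61.2% G or C. Of all 32851 windows of this length in the RefSeq table, 32.7% held a GC box. Of the 9 windows of the 7 measured genes, 5 held one, among them those of Atp2b1, which was not called, with 3 boxes each. A direct repeat of the receptor's half-site with a spacer of 3 bases, known as DR3, was searched on both strands in the 9 windows of the 7 genes. None of the 9 windows held it, against 0.222% of all windows; this says only that the letters are not in these windows.

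The receptor Vdr was brighter in A/J than in B6 mice. Its log2 signal was 10.58, 10.59 and 10.53 on the A/J sham arrays and 10.33, 10.17 and 10.15 on the B6 sham arrays. After CBDL it was 10.58, 11.21 and 10.71 in A/J mice and 9.98, 10.37 and 10.29 in B6 mice. Every A/J array lay above every B6 array, in sham and in CBDL mice, while A/J CBDL replicate 2 stood above all others. Averaged over both operations, Vdr was higher in A/J mice by 0.49 on the log2 scale, a 1.40-fold difference (standard error 0.11, adjusted p = 0.0316 from limma, 6 arrays per strain). It was 1 of the 7 genes called in this comparison, in which 4.63% of all 35556 probe sets were called, 1.51% as higher in A/J mice, and 1.26% had all A/J arrays above all B6 arrays. In tissue RNA, fewer cells of a type and less RNA per cell cannot be told apart.

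Neither strain comparison on its own called a member. Between the sham groups Vdr differed by 0.35 (standard error 0.16, adjusted p = 0.315) and between the CBDL groups by 0.62 (standard error 0.16, adjusted p = 0.0826). These comparisons of 3 arrays with 3 use the same arrays as the average. Of the 7 members, 1 had an unadjusted p under 0.05 in each of them, as had 15.4% of all probe sets in sham and 13.7% in CBDL mice, and limma called 1.87% of all probe sets between the sham groups and 1.78% between the CBDL groups. All A/J arrays lay above all B6 arrays for 1 of the 7 members, Vdr, in each, as for 9.15% of all probe sets in sham and 10.4% in CBDL mice. CBDL left no called difference in Vdr within a strain. The log2 difference from sham was 0.26 in A/J mice (95% confidence interval -0.08 to 0.61) and -0.0040 in B6 mice (-0.35 to 0.34), and the test of the difference between these responses gave 0.27 (-0.22 to 0.75, adjusted p = 0.861). Leaving out any 1 of 7 arrays ended the strain call of Vdr (A/J sham replicates 1 and 2, all B6 sham replicates, and B6 CBDL replicates 1 and 3), with a log2 difference of 0.39 to 0.55 over the 12 omissions and an adjusted p of up to 0.0785.

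**Figure D1:**
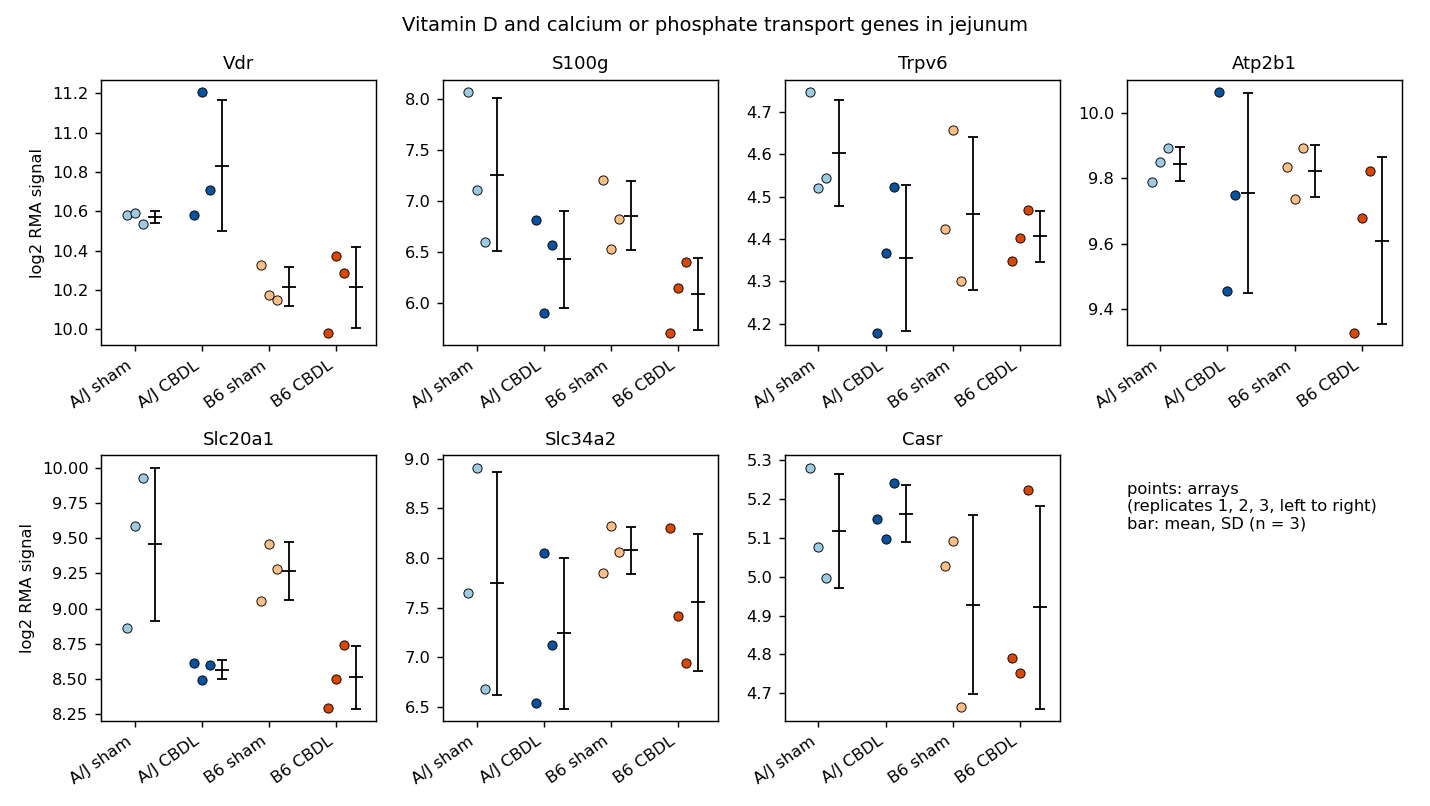
Log2 RMA signal (vertical axis, its own scale for each gene) of the 7 measured genes on the 12 arrays. Points are arrays in the order of replicates 1 to 3 and bars are the mean and SD of 3 arrays; for Slc20a1 all CBDL arrays lie below all sham arrays, and for Vdr all A/J arrays lie above all B6 arrays.

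The genes of calcium transit gave no call. S100g encodes the small calbindin that ferries calcium through the enterocyte, and it is a standard target of the vitamin D receptor. Its log2 signal was 8.07, 7.11 and 6.60 in A/J sham mice and 6.82, 5.90 and 6.57 in A/J CBDL mice. In B6 mice it was 7.21, 6.53 and 6.82 after the sham operation and 5.70, 6.14 and 6.40 after CBDL. The CBDL arrays lay below all sham arrays in B6 mice, and in A/J mice replicate 1 of the CBDL group lay above sham replicate 3, so the groups overlapped. The log2 difference from sham was -0.83 in A/J mice (95% confidence interval -1.63 to -0.04) and -0.77 in B6 mice (-1.57 to 0.02). Averaged over the strains it was -0.80 (standard error 0.26, adjusted p = 0.175, unadjusted p = 0.00941), and the adjusted p was 0.0530 or higher under every alternative tried.

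Trpv6, the calcium channel of the apical membrane, had signals of 4.18 to 4.75 over the 12 arrays, below the array medians of 5.36 to 5.51. The files give no detection call, so a signal at this level cannot be told from background. The groups overlapped in every comparison; the log2 difference between CBDL and sham was -0.25 in A/J mice (95% confidence interval -0.51 to 0.02) and -0.05 in B6 mice (-0.32 to 0.21). Atp2b1, the plasma membrane pump that moves calcium into the blood, was at 9.84 ± 0.05 on the log2 scale after the sham operation and 9.76 ± 0.31 after CBDL in A/J mice, and at 9.82 ± 0.08 and 9.61 ± 0.26 in B6 mice (mean and SD, n = 3). The groups overlapped throughout, and the average difference after CBDL was -0.15 (95% confidence interval -0.40 to 0.10). The 6 sham arrays spread from 9.74 to 9.89 for Atp2b1 and the 6 CBDL arrays from 9.33 to 10.06.

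Casr, the receptor through which cells sense extracellular calcium, had a log2 signal of 4.67 to 5.28 over the 12 arrays, also below the array medians. In A/J mice it was 5.12 ± 0.15 after the sham operation and 5.16 ± 0.07 after CBDL, and in B6 mice 4.93 ± 0.23 and 4.92 ± 0.26 (mean and SD, n = 3). The groups overlapped in every comparison. Its difference between CBDL and sham averaged over the strains was 0.02 (95% confidence interval -0.22 to 0.25), and between A/J and B6 mice it was 0.22 (-0.02 to 0.45, adjusted p = 0.293).

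Slc20a1 was the only one of the 7 members called after CBDL. Its log2 signal was 8.86, 9.58 and 9.93 in A/J sham mice and 8.61, 8.49 and 8.60 in A/J CBDL mice. In B6 mice it was 9.05, 9.46 and 9.28 after the sham operation and 8.29, 8.50 and 8.74 after CBDL. All 6 CBDL arrays lay below all 6 sham arrays, as did 0.568% of all probe sets, and the A/J sham arrays were the most scattered. Averaged over the strains the log2 signal fell by 0.82 (95% confidence interval -1.18 to -0.47, adjusted p = 0.0321 from limma), which leaves 0.565 of the sham signal on the linear scale. In this comparison 1.74% of all probe sets were called, and 0.616% were called as lower.

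Within each strain the difference in Slc20a1 was of similar size but not called: -0.89 in A/J mice (standard error 0.23, adjusted p = 0.111) and -0.75 in B6 mice (standard error 0.23, adjusted p = 0.362). All CBDL arrays lay below all sham arrays for 1 of the 7 members in A/J mice, Slc20a1, and for 2 in B6 mice, Slc20a1 and S100g, as they did for 9.07% of all probe sets in A/J and 7.62% in B6 mice. limma called 0 of the 7 members in either strain, against 0.818% and 0.0534% of all probe sets, and 2 members in A/J and 1 in B6 mice had an unadjusted p under 0.05, as had 14.2% and 7.64% of all probe sets. The median log2 difference of the 7 members was -0.25 in A/J mice and -0.21 in B6 mice, against -0.013 and -0.0025 for all probe sets. The difference between the strains in the response of Slc20a1 was -0.14 (95% confidence interval -0.85 to 0.58, adjusted p = 0.962); in this interaction 0 of the 7 members were called, 0 had an unadjusted p under 0.05, and 0.0366% of all probe sets were called. Leaving out any 1 of 10 arrays, all but A/J sham replicates 1 and 3, ended the call of Slc20a1 over both strains, with a log2 difference of -0.97 to -0.71 over the 12 omissions and an adjusted p of up to 0.0894. Without A/J sham replicate 1 the difference within A/J mice was called (-1.19, adjusted p = 0.0175).

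Slc34a2, the sodium-phosphate transporter of the brush border, scattered most of the 7 genes, with an SD of 0.73 over the 12 arrays. Its log2 signal was 7.64, 8.91 and 6.68 in A/J sham mice and 6.54, 8.05 and 7.13 in A/J CBDL mice. It was 7.85, 8.32 and 8.06 in B6 sham and 8.30, 7.41 and 6.94 in B6 CBDL mice. The groups overlapped in every comparison. The average difference after CBDL was -0.52 (95% confidence interval -1.36 to 0.33), an interval that also holds differences as large as that of Slc20a1. Sham and CBDL differed in Slc34a2 by -0.50 in A/J and by -0.53 in B6 mice, each with a standard error of 0.54.

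**Figure D2:**
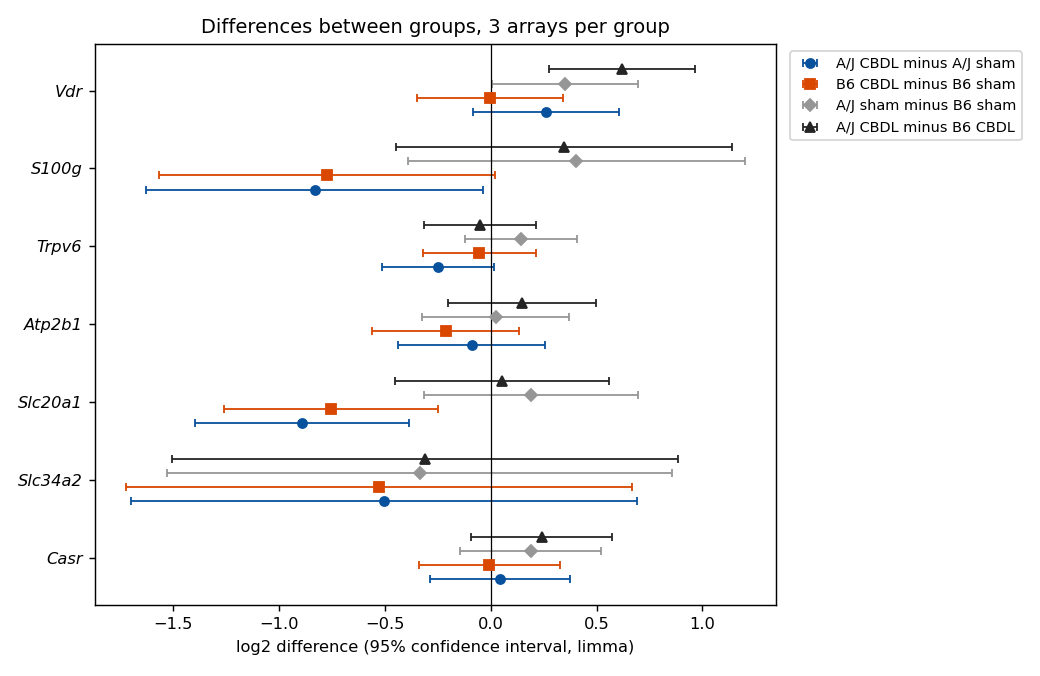
Log2 difference (horizontal axis) of each of the 7 genes in the 4 comparisons of 2 groups, with 95% confidence intervals from limma, 3 arrays per group. Intervals for Slc20a1 after CBDL lie below 0 in both strains, those for S100g reach to -0.04 in A/J and 0.02 in B6 mice, and those for Slc34a2 are the widest.

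Other genes of vitamin D, calcium and phosphate handling were taken from 6 lists with 59 genes, of which 52 were measured. The lists were chosen with earlier results of these data known, so setting their counts beside the shares of all probe sets is no test. Averaged over the strains, 3 of the 52 were lower after CBDL, 0 higher and 49 did not pass, beside 0.616% of all probe sets called as lower and 1.74% called in either direction, with a median log2 difference of -0.04 against -0.01 for all probe sets. In A/J mice alone 2 were lower, where 0.188% of all probe sets were called as lower, and in B6 mice limma called 0, with 8 of the 52 at an unadjusted p under 0.05, as had 7.64% of all probe sets. In the test of the difference between the strains' responses it called 0 as well, with 8 at an unadjusted p under 0.05, as had 6.88% of all probe sets. Between A/J and B6 mice, averaged over the operations, 2 were higher in A/J, 1 was lower and 49 did not pass, beside 1.51% of all probe sets called as higher and 4.63% called in either direction.

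Among genes of phosphate transport, Slc34a3 differed most between the strains. It encodes a sodium-phosphate transporter best known from the kidney. Its log2 signal was 7.61, 9.49 and 8.45 in A/J sham mice and 6.87, 6.68 and 6.75 in A/J CBDL mice. In B6 mice it was 5.13, 5.29 and 5.19 after the sham operation and 5.37, 5.27 and 5.66 after CBDL, near the array medians. All A/J arrays lay above all B6 arrays, and all A/J CBDL arrays lay below all A/J sham arrays.

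In sham mice, Slc34a3 had a log2 signal higher by 3.31 in A/J than in B6 (standard error 0.35, adjusted p = 0.000689). The B6 sham signals lay below the medians of their arrays, and without a detection call they cannot be told from background. The signals differed 9.94-fold on the linear scale, and the fold difference in RNA is not known. Over the alternatives this log2 difference was 2.83 to 3.93. After CBDL the strains differed by 1.33 (standard error 0.35, adjusted p = 0.0904). In A/J mice the signal fell by 1.75 after CBDL (standard error 0.35, adjusted p = 0.0472), and in B6 mice the difference was 0.23 (95% confidence interval -0.53 to 0.99). The difference between these responses was -1.98 (95% confidence interval -3.05 to -0.90) with an unadjusted p of 0.00193, and it was not called (adjusted p = 0.465). Leaving out any 1 of 11 arrays, all but A/J sham replicate 1, ended the A/J call of Slc34a3 (log2 difference -2.20 to -1.26 over the 12 omissions), as did a model of only the A/J arrays (adjusted p = 0.235) and a trended, robust prior (adjusted p = 0.0508). The strain call in sham mice was kept under all 20 alternatives.

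Of the other phosphate genes, Pdzk1, a scaffold that anchors transporters in the brush border, fell by 0.41 on the log2 scale after CBDL averaged over the strains (standard error 0.08, adjusted p = 0.0264). Its log2 signal was 10.24, 10.37 and 10.48 in A/J sham and 9.97, 9.89 and 10.05 in A/J CBDL mice. In B6 mice it was 10.63, 10.56 and 10.71 after the sham operation and 9.98, 10.34 and 10.28 after CBDL. Within each strain the groups did not overlap. The call of Pdzk1 was lost without any 1 of 6 arrays (A/J sham replicate 2, A/J CBDL replicates 1 and 2, B6 sham replicates 1 and 3, B6 CBDL replicate 3). The remaining phosphate genes, Slc34a1, Slc20a2, the exporter Xpr1, the scaffold Slc9a3r1 and the phosphatase Alpi, passed no test.

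Calcium also crosses between cells, through claudins of the tight junction. Cldn15, which forms cation pores in the small intestine, was at 11.03 ± 0.13 on the log2 scale after the sham operation and 10.54 ± 0.17 after CBDL in A/J mice, and at 10.66 ± 0.10 and 10.33 ± 0.12 in B6 mice (mean and SD, n = 3). Averaged over the strains its difference after CBDL was -0.41 (standard error 0.08, adjusted p = 0.0320), and the groups did not overlap within either strain. It was lost without any 1 of 8 arrays (all but A/J sham replicate 1, A/J CBDL replicate 3, B6 sham replicate 2 and B6 CBDL replicate 2). Cldn2 and Cldn12, the other claudins listed, passed no test. Of 13 genes of calcium entry, buffering and extrusion, among them Trpv5, Calb1, the calmodulins Calm2 and Calm3, and the reticular pumps Atp2a2 and Atp2a3, 0 were called by limma in any of the 7 comparisons. Over these comparisons limma called 0.0366% to 4.63% of all probe sets. In each comparison 2 to 4 of the 13 had an unadjusted p under 0.05, as had 6.88% to 19.9% of all probe sets.

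Among 13 genes of vitamin D handling and receptor partners, Cyp2r1 differed between the strains. It encodes the liver enzyme that adds the first hydroxyl group to vitamin D. Its log2 signal was 3.39 to 3.68 in A/J sham and 3.55 to 3.87 in A/J CBDL mice, against 4.20 to 4.45 in B6 sham and 4.77 to 5.23 in B6 CBDL mice. All A/J arrays lay below all B6 arrays, at signals below the array medians. The log2 difference of A/J minus B6 was -0.87 in sham mice (standard error 0.15, adjusted p = 0.0110) and -1.29 in CBDL mice (standard error 0.15, adjusted p = 0.00134). The A/J signals lay below 4.21, the level under which the 30% dimmest probe sets fall by their mean, and the B6 sham signals lay close to it. Without a detection call such signals cannot be told from background, so the size of the difference in RNA is not known. Leaving out the dimmest probe sets removes Cyp2r1 from the test. The sham call was lost without A/J sham replicate 2 or B6 sham replicate 3. Cubn, which in the kidney helps recover vitamin D with its binding protein, was the only gene of this list called after CBDL (1 of 13), with a log2 difference of -2.27 in A/J mice (adjusted p = 0.00298) and -1.87 averaged over the strains (adjusted p = 0.000926). In B6 mice the groups did not overlap either, with a log2 difference of -1.47 that was not called (adjusted p = 0.0678). The paper, by its own analysis, lists Cubn as significantly lower after CBDL in each strain. Gc, the binding protein itself, has no probe set named in the platform table and is not analysed here.

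The receptor's partners showed no call. Rxra, the retinoid X receptor that pairs with Vdr, had a log2 difference after CBDL of 0.29 in A/J mice (adjusted p = 0.403) and 0.06 in B6 mice (adjusted p = 0.974). Of 5 further genes known to respond to the receptor, limma called 0 in any of the 7 comparisons, against 0.0366% to 4.63% of all probe sets. Only 1 of the 5 had an unadjusted p under 0.05, in the test of the difference between the strains' responses, where 6.88% of all probe sets had one. This was Cyp3a11, which oxidizes bile acids and drugs, whose log2 difference after CBDL was 0.52 in the A/J strain and -0.52 in the B6 strain (standard error 0.33 for each; adjusted p of the difference between them 0.720). Rxra and Cyp3a11 were picked for the text after their values were seen. Of 11 hormones and receptors of calcium and phosphate balance, 1 was called, in 1 comparison: Fgf23, a phosphate-lowering hormone of bone, was higher in A/J mice by 0.36 averaged over the operations (standard error 0.09, adjusted p = 0.0359). In that comparison 4.63% of all probe sets were called, 1.51% as higher in A/J mice. The signals of Fgf23 were 5.29 to 5.65 in A/J mice, near the array medians, and 4.90 to 5.15 in B6 mice, below them. Without a detection call, signals at this level cannot be told from background. The call was lost without any 1 of 9 arrays (all but A/J sham replicate 3, A/J CBDL replicate 2 and B6 sham replicate 2).

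**Figure D3:**
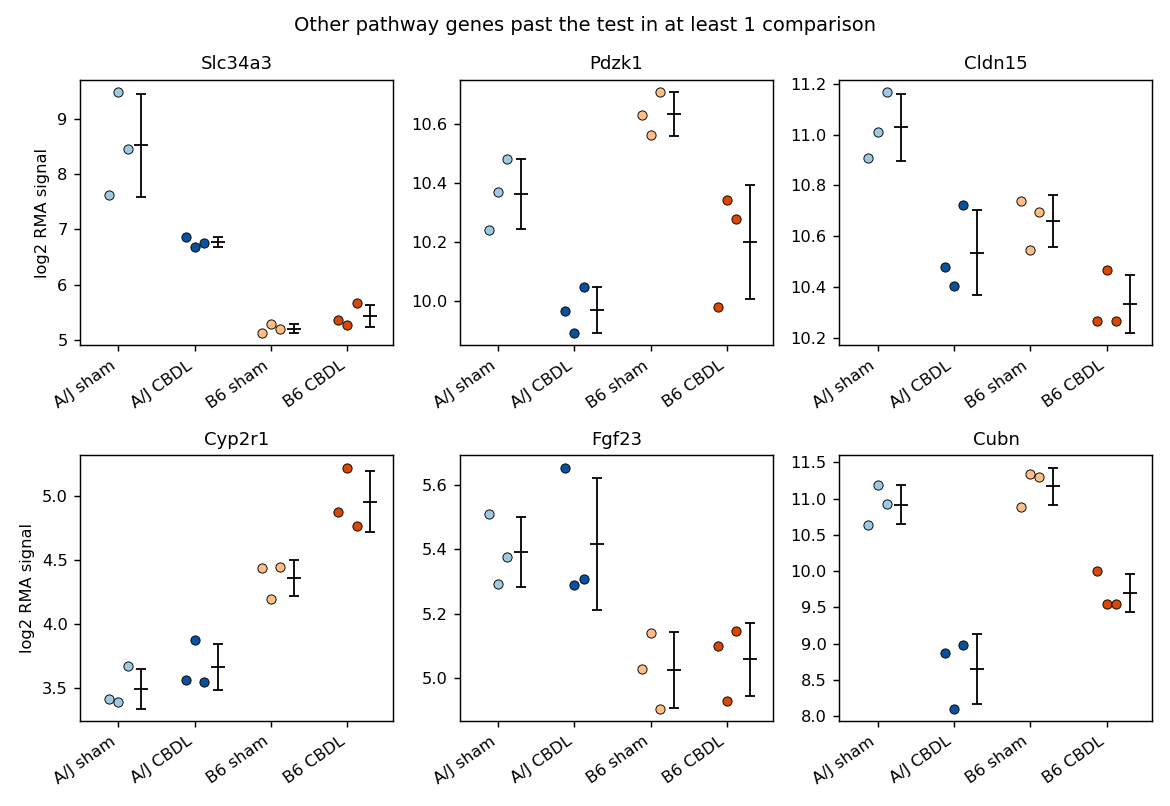
Log2 RMA signal (vertical axis, its own scale for each gene) of the 6 pathway genes called in at least 1 comparison, on the 12 arrays. Points are arrays, bars are the mean and SD of 3 arrays; Slc34a3 is highest in A/J sham mice at 7.61 to 9.49, and Cyp2r1 is lower on every A/J array than on every B6 array.

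The labelled tissue was checked with marker genes. The mean of 6 enterocyte markers lay between 12.43 and 12.69 on all arrays, and in both strains every CBDL array lay below every sham array, with group means of 12.65 and 12.45 in A/J and 12.59 and 12.50 in B6 mice. Lct, lactase, was the 1 of these 6 genes called as lower averaged over the strains, where 0.616% of all probe sets were called as lower. The mean of 6 hepatocyte markers was 4.75 to 5.81 after the sham operation and 9.52 to 10.35 after CBDL in A/J mice, and 7.36 to 9.87 and 9.47 to 9.99 in B6 mice. All 6 were called as higher averaged over the strains, where 1.74% of all probe sets were called in either direction. The part of these markers in the values above was not tested.

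The mean of 5 smooth muscle markers was 6.89, 9.37 and 8.51 after the sham operation and 9.14, 8.34 and 8.17 after CBDL in A/J mice, and 8.54 to 9.17 and 7.04 to 7.85 in B6 mice. In B6 mice it was lower on all CBDL arrays, as was Slc20a1. There limma called 0 of the 5, against 0.0534% of all probe sets. All 5 had an unadjusted p under 0.05, as had 7.64% of all probe sets. In A/J mice the sham and CBDL arrays overlapped in the muscle mean. The part of these markers in the values of Slc20a1 was not tested. Of the 12 arrays, A/J sham replicate 1 correlated least with the rest (mean r over probe sets 0.970). Without this array Slc20a1 differed by -0.97 over both strains (adjusted p = 0.00421).

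Several of the members are used unevenly along the gut, so genes of its segments were measured too. The mean of 4 duodenal genes was 7.93 to 8.43 in A/J CBDL against 8.02 to 8.15 in A/J sham mice, and 7.52 to 7.76 in B6 CBDL against 7.52 to 8.19 in B6 sham mice. Of these 4, Gip, an incretin hormone of the upper gut, was higher in A/J than in B6 mice. The mean of 3 ileal genes was 5.29 to 5.46 after the sham operation and 6.13 to 6.37 after CBDL in A/J mice, and 5.38 to 5.97 and 5.68 to 6.22 in B6 mice; of the 3, Nr1h4, the bile acid receptor, was called as higher averaged over the strains. All 4 crypt markers were lower in A/J than in B6 mice averaged over the operations, the direction opposite to that of Vdr, and 3 of the 4 were called. In that comparison 4.63% of all probe sets were called in either direction. The mean of 4 leukocyte genes was 6.95 to 7.58 after the sham operation and 7.00 to 7.15 after CBDL in A/J mice. In B6 mice it was 7.06 to 7.16 and 6.71 to 6.92, so that all CBDL arrays lay below all sham arrays there, as for Slc20a1. Of these 4, Cd3e, a T cell gene, was higher in A/J than in B6 mice after CBDL. The mean of 3 colonic genes was 4.96 to 5.46 and 5.70 to 5.80 in A/J mice and 5.57 to 6.72 and 5.32 to 5.84 in B6 mice. The rise of this mean in A/J mice was that of 1 gene, Car1, whose group mean was 4.41 in sham and 7.73 in CBDL mice, not called. The other 2 went down there, Aqp8 from 6.97 to 5.48 and Hoxb13 from 4.34 to 4.02. Of these 3, the water channel Aqp8 was called as lower after CBDL in A/J mice and averaged over the strains. Between the sham groups Aqp8 was higher and Car1 lower in A/J mice. The mean of 4 pancreatic genes was 4.17 to 4.65 over all arrays, and none of the 4 was called by limma in any comparison, with 1, Cpa1, at an unadjusted p under 0.05 in B6 mice after CBDL. The part of these markers in the members' values was not tested.

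**Figure D4:**
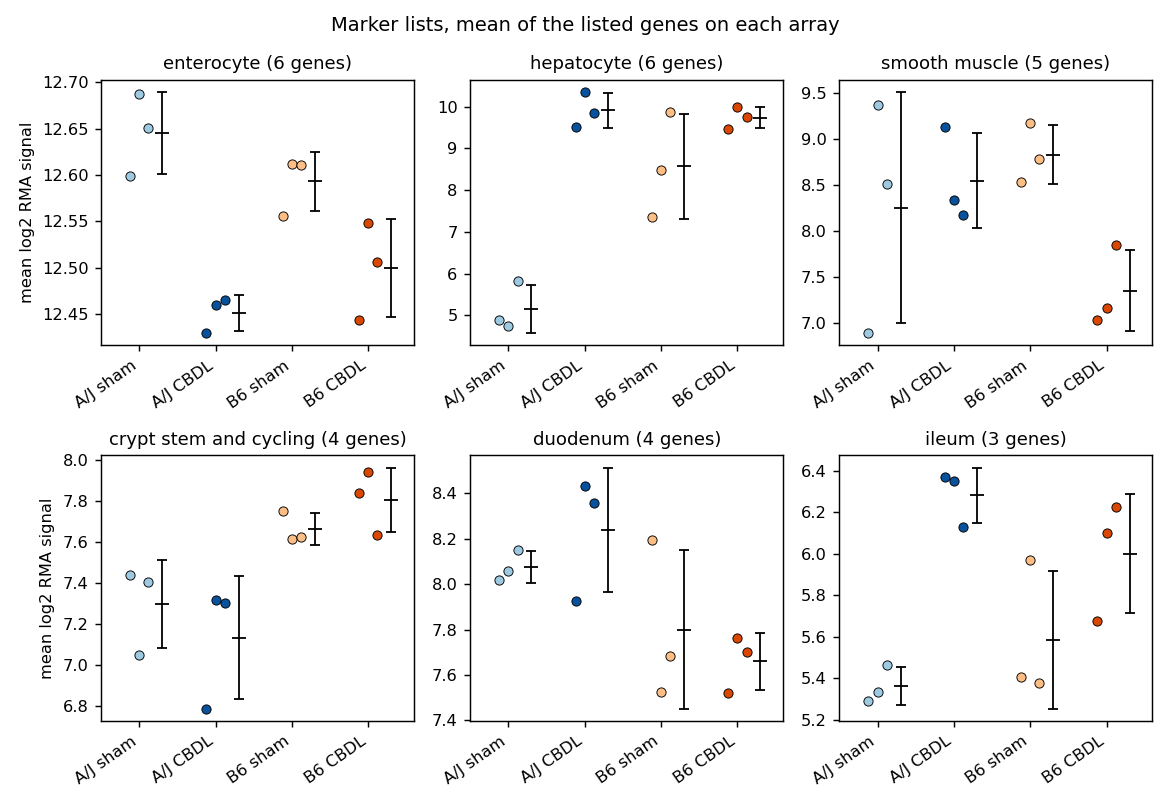
Mean log2 RMA signal (vertical axis, its own scale in each panel) of 6 marker lists on each of the 12 arrays; points are arrays and bars are the mean and SD of 3 arrays. Hepatocyte markers are lowest in A/J sham mice, at 4.75 to 5.81, and enterocyte markers are lower on every CBDL array than on every sham array of the same strain.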

How the data were processed

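The authors deposited log2 values made from Affymetrix arrays with RMA, which corrects background, makes the arrays' distributions alike and summarises each probe set; a shift shared by all genes is removed by this step. Per the labels this was run in Affymetrix's Expression Console (versions not given in the sources used here), while the paper's methods name GCRMA and another Affymetrix array. The table holds 35556 probe sets on 12 arrays, and the values were used as deposited. The platform annotation gives 1 symbol for 21789 probe sets, several for 1621 and none for 12146.

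The model, with a mean for each group over the 12 arrays, was run in R 4.3.3 (limma 3.58.1, lmFit and eBayes) for 7 comparisons. A call needed an adjusted p below 0.05 after Benjamini and Hochberg's correction across the whole table. The script was tested on simulated data. Besides the 8 listed genes, the text names in each pathway list up to 4 called genes per comparison, with other listed genes and markers as examples, and for the 3 members with the largest SD the 3 genes nearest in profile. The members and lists were chosen with earlier results of these data known.

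Alternatives were a fit to only the arrays compared, the table without the 30% dimmest probe sets, quantile normalization, arrays centred on their medians, weights per array, a trended and robust prior, a block for the replicate number, gene means over all single-symbol probe sets, and each array left out in turn. The number of arrays limits the precision.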

Additional observations from a re-analysis of the deposited data

How the results depend on the processing

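The 47 values of the 7 members that were not called had 921 alternative values. Of these, 5 were called, all for Slc20a1 within A/J mice or for Vdr between the CBDL groups. None of the others moved by more than the SD between replicates. In A/J mice 1 member, Slc20a1, was called after CBDL with array weights and with gene means over all single-symbol probe sets, and 0 to 1 when 1 array was left out. Between the CBDL groups 1 member, Vdr, was called with quantile normalization and with gene means, and 0 with each array left out. For CBDL averaged over the strains and for strain averaged over the operations the count was 0 to 1 over the arrays left out, and 1 under every other alternative. In the other 3 comparisons it was 0 throughout. Gene means test fewer features, the 19938 named genes.

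Replicate numbers are shared between the groups, but only 2 of 18 correlations between the deviations of same-numbered arrays exceeded 0.1 (-0.31 to 0.36), and 4 of 12 arrays correlated best with their own number. With the replicate number as a block, limma called 1 member, Slc20a1, after CBDL averaged over the strains (log2 difference -0.82, adjusted p = 0.0258) and 1, Vdr, between the strains (0.49, adjusted p = 0.0420). The block ended the calls of 2 other pathway genes, Slc34a3 after CBDL in A/J mice (adjusted p = 0.0746) and Cldn15 after CBDL averaged over the strains (adjusted p = 0.0584). The counts over all probe sets moved widely: 90 to 1299 against 291 in A/J, 1 to 167 against 19 in B6, 271 to 3044 against 665 in sham, 290 to 1261 against 634 in CBDL mice, 0 to 28 against 13 for the interaction, 269 to 1510 against 617 for CBDL and 1010 to 4490 against 1648 for strain. The causes were not tested.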

Other observations

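For the 3 members that varied most, the genes with the nearest profile over the 12 arrays were sought among 19937 others, by the root mean square difference of log2 signals after each gene's own mean was subtracted. Because they were picked for likeness on these arrays, their differences and adjusted p after CBDL are not independent of the member's. Nearest to Slc20a1 were Asb2, a subunit of ubiquitin ligases, at 0.18, Ube2l6, which conjugates the ubiquitin-like protein ISG15, at 0.21, and Bmp8a, a growth factor, at 0.21, against an SD of 0.51 for Slc20a1 itself. After CBDL, averaged over the strains, Asb2 had a log2 difference of -0.77 (adjusted p = 0.0206), Ube2l6 of -0.64 (adjusted p = 0.00400) and Bmp8a of -0.67 (adjusted p = 0.0181).

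Nearest to S100g were Fbln1, an extracellular matrix protein, at 0.39, Cst6, a cysteine protease inhibitor, at 0.40, and Thap8 at 0.41, against an SD of 0.63. Fbln1 had a log2 difference after CBDL of -0.66 (adjusted p = 0.00411) and Cst6 of -0.71 (adjusted p = 0.0128) averaged over the strains, and Thap8, not called, of -0.30 (adjusted p = 0.332). For Slc34a2 the nearest, Hbq1a at 0.48, Vnn1 at 0.51 and Olfr1271 at 0.52, lay nearer to its own SD of 0.73. None of them was called after CBDL averaged over the strains, with log2 differences of -0.13 for Hbq1a (adjusted p = 0.787), -0.23 for Vnn1 (adjusted p = 0.694) and -0.28 for Olfr1271 (adjusted p = 0.541). All of these profiles share the same 12 arrays, and the likeness is a description without a test.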
